A study of Mus musculus with 24 samples.

Results

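KRAB zinc finger genes lie in tandem arrays, and 3 such arrays of the mouse genome were examined for the binding of factors that act on paused RNA polymerase II. The arrays were the mm10 intervals chr2:175000000-177600000, chr4:145200000-147900000 and chr13:65000000-67900000, of 2.6, 2.7 and 2.9 Mb. Every peak whose midpoint lay inside an interval was a member, whatever its strength. This gave 3316 of the 1811308 peaks in 6 peak lists, with 290 on chromosome 2, 1353 on chromosome 4 and 1673 on chromosome 13. The remainder of the same 3 chromosomes held 344750 peaks and served as the comparison, called the rest. The peaks came from chromatin immunoprecipitation and sequencing (ChIP-seq) of E14 cells, a mouse embryonic stem cell line, kept in serum with LIF. All cells had the genotype labelled Nelfb deg, in which NELFB carries an HA tag and can be degraded with dTAG-13, and all 6 libraries were labelled Control. NELFB was precipitated through its tag with HA-Tag CST (C29F4), NELFE with Anti-NELFe abcam (ab170104) and SPT5 with Anti-DSIF BD (BD611106), in 2 libraries each. The other 18 of the 24 samples, among them those given 500 nM dTAG-13 for 30 min, were not analysed here. The labels do not say whether the line is 1 clone.

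The negative elongation factor NELF, of which NELFB and NELFE are subunits, and the elongation factor DSIF, of which SPT5 is a subunit, bind RNA polymerase II shortly after it starts transcription. NELF holds the polymerase near the promoter, whereas SPT5 stays with it along the gene. KRAB zinc finger proteins are DNA-binding repressors, many of which recognise transposable elements and recruit the corepressor TRIM28 and the histone methyltransferase SETDB1. Their genes have multiplied by local duplication, so that neighbours in an array can be close copies of each other. The annotation placed 100 protein-coding genes in the arrays, and 51 of them were zinc finger genes by name (6 on chromosome 2, 17 on chromosome 4 and 28 on chromosome 13). Many of the other genes have only a Gm number, and whether a gene encodes a KRAB domain was not examined. The arrays also held 22, 56 and 48 annotated pseudogenes on chromosomes 2, 4 and 13.

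The promoters of these genes show how alike the copies are. Of the 100 genes, 84 were matched to a RefSeq promoter, and 83 had a start inside an array. The sequences below are the 250 bases before the start on GRCm38.p6, the assembly of mm10, written 5′ to 3′ on the gene's own strand, with each CpG dinucleotide in capitals. The pair from chromosome 2 is shown because that array was almost free of peaks, and the pair from chromosome 4 because its members also had no strong peak. The next 3 are zinc finger genes whose printed start had a strong peak in 3 libraries (Zfp982), 4 (Zfp748) and 5 (Zfp729a). The genes were chosen after their values were seen.
Zfp966, chr2:175931101-175931350, minus strand: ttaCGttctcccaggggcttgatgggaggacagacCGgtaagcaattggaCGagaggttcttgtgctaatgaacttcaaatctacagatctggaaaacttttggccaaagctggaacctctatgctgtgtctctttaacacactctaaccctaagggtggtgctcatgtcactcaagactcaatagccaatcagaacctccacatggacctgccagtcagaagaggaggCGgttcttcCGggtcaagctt
Zfp967, chr2:176520754-176521003, plus strand: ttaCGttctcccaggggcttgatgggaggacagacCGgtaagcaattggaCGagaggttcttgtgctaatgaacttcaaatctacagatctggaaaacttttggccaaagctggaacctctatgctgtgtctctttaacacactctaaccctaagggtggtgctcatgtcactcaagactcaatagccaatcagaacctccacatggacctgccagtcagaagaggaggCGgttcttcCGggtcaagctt
Zfp600, chr4:146156577-146156826, plus strand: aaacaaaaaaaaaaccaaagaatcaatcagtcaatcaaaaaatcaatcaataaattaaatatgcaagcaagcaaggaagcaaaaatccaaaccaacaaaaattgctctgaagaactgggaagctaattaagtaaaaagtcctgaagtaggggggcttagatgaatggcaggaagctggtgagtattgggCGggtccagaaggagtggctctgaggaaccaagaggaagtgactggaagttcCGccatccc
Rex2, chr4:147021600-147021849, plus strand: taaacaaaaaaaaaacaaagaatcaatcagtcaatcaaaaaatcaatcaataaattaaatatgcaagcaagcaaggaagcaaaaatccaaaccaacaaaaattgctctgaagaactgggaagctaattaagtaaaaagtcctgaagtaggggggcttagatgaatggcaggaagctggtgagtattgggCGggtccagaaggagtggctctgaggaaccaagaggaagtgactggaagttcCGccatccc
Zfp982, chr4:147442864-147443113, plus strand: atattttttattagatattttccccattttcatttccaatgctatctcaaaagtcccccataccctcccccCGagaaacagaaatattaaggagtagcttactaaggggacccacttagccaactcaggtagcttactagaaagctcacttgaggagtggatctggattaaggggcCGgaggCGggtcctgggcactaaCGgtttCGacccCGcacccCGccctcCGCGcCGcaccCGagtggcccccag
Zfp748, chr13:67553153-67553402, minus strand: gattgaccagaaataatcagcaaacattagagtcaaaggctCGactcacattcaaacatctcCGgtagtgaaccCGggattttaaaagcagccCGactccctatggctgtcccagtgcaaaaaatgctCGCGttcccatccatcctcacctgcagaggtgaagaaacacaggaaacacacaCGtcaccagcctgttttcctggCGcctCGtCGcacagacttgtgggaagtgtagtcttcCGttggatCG
Zfp729a, chr13:67637782-67638031, minus strand: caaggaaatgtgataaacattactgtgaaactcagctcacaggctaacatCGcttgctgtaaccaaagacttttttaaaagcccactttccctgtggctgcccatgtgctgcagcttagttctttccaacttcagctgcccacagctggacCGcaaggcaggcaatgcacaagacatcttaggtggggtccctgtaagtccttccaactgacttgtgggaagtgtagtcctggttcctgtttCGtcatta
The 250 bases of Zfp966 and Zfp967 did not differ at any position, although the genes lie on opposite strands. Those of Zfp600 and Rex2 differed at 4 of 250 positions when aligned without gaps. The printed promoters of Zfp982, Zfp748 and Zfp729a shared no run of 50 bases with the promoter of another gene. Zfp982 had 11 CpG dinucleotides, Zfp748 had 12 and Zfp729a had 3, against 5 each in Zfp966 and Zfp967 and 2 each in Zfp600 and Rex2.

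The libraries held 27324697 to 62312558 filtered sequencing tags, and their lists 137102 to 462153 peaks. The list of SPT5 replicate 2, the deepest library, was the shortest, and that of SPT5 replicate 1, the shallowest, was the longest. The 4 NELF libraries were read with 50 bp tags and an input each, whereas the SPT5 libraries were read with 100 and 101 bp tags and shared 1 input. The antibody against SPT5 therefore cannot be told apart from tag length and input. Stem cell identity was checked at gene starts. Of 8 matched pluripotency genes, 6 (Pou5f1, Sox2, Klf4, Zfp42, Tdgf1 and Utf1) had a peak at a q-value of 0.01 or less within 1 kb of the start in all 6 libraries, against 31.2% of the 3253 protein-coding genes on the rest of the 3 chromosomes. Nanog had one in 2 libraries and Esrrb in none. Of 5 matched markers of other cell types, none had one in all 6, and 4 had none in any, against 49.4% of those genes.

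The arrays held fewer peaks per megabase than the rest in 5 of the 6 libraries. NELFB:HA gave 63.5 and 71.6 peaks per Mb in the arrays against 149 and 191 in the rest. NELFE gave 45.4 and 53.9 against 89.2 and 96.5. SPT5 gave 103 and 67.1 against 196 and 59.5, so that only SPT5 replicate 2 was denser in the arrays. The mean log2 ratio of arrays to rest was -0.87 ± 0.55 (SD, n = 6). A two-sided exact sign-flip permutation test over the 6 libraries gave p = 0.0625, and 0.0625 after Benjamini-Hochberg adjustment over the 6 measures compared, so the difference did not pass the threshold of 0.05. The share of bases under a peak behaved alike, with a mean log2 ratio of -0.72 ± 0.55 and the same exact p and adjusted p. Without SPT5 replicate 2 the density was lower in 5 of 5 libraries, at a mean log2 ratio of -1.08, but the smallest p that 5 libraries can give is 0.0625. With the 100000 highest-scoring peaks of each list it was -0.35. With the arrays of chromosomes 4 and 13 alone, a subset chosen after seeing the data, it was -0.41. Neither was past the threshold. The libraries share cells, a genome and partly an input, and the labels do not say that replicates were separate cultures, so these p-values measure only the spread between libraries.

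**Figure D1:**
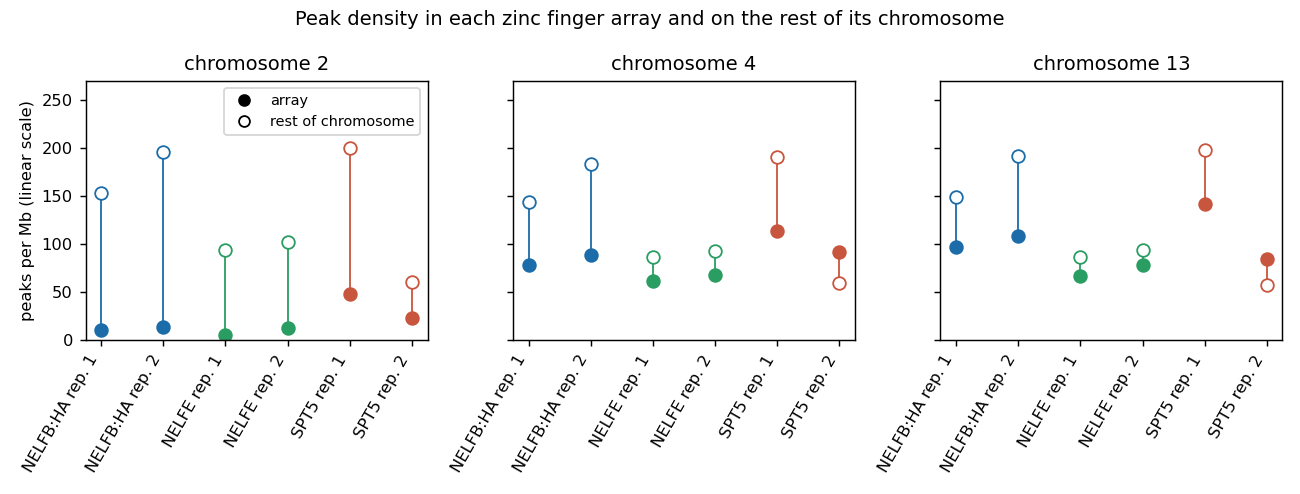
Peaks per Mb (linear scale) in each array (filled) and on the rest of its own chromosome (open), 1 pair of points per library, coloured by antibody. The chromosome 2 array lies between 5.0 and 48.1 peaks per Mb, and SPT5 replicate 2 is the library whose arrays on chromosomes 4 and 13 lie above the rest.

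The 3 arrays differed among themselves, and the array on chromosome 2 was nearly empty. It held 28 and 35 peaks in NELFB:HA, 13 and 31 in NELFE, and 125 and 58 in SPT5. Its density was 10.8, 13.5, 5.0, 11.9, 48.1 and 22.3 peaks per Mb in that order of libraries, against 60.8 to 200.2 on the rest of chromosome 2. When the rest of the chromosome was divided into 66 windows of 2.6 Mb, all 66 were denser than the array in 5 libraries, and 64 were in SPT5 replicate 2. The density relative to the rest was 0.0536 to 0.117 in the NELF libraries and 0.240 and 0.367 in the SPT5 libraries. The groups did not overlap, and tag length, 50 bp in the former and 100 or 101 bp in the latter, moved with this difference; its part was not tested.

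The stretch chr2:175180089-176699937, 1519849 bp long, had no peak in any of the 6 lists. The longest such stretch on the rest of chromosome 2 was 238626 bp. Inside it lay the starts of 17 protein-coding genes, 5 of them zinc finger genes by name (Zfp968, Zfp965, Zfp966, Zfp967 and Zfp973). In all, 93.3% of the chromosome 2 array was under no peak of any list, against 43.7% of the rest of that chromosome. The files give peaks and not coverage, so a stretch without peaks can be one without mapped tags, and this was not tested.

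The arrays on chromosomes 4 and 13 were closer to their chromosomes. The chromosome 4 array held 165 to 307 peaks, at 61.1 to 114 per Mb, and its density relative to the rest was 0.480 to 0.737 in 5 libraries and 1.54 in SPT5 replicate 2. The chromosome 13 array held 194 to 412 peaks, at 66.9 to 142 per Mb, with relative densities of 0.564 to 0.839 in 5 libraries and 1.47 in SPT5 replicate 2. Relative to its own chromosome, the chromosome 4 array was denser than that on chromosome 2 by 2.59 ± 0.82 on the log2 scale (SD, n = 6), and the chromosome 13 array by 2.76 ± 0.83. Both differences were found in 6 of 6 libraries (exact sign-flip permutation test, p = 0.03125, the smallest 6 libraries can give, adjusted over 3 pairs to 0.0469). The arrays on chromosomes 13 and 4 differed by 0.17 ± 0.13, in 5 of 6 libraries, which did not pass (exact p = 0.0625, adjusted 0.0625). Peaks were sparse in parts of these arrays too. The longest stretch without a peak in any list was 170579 bp in the chromosome 4 array and 103116 bp in that of chromosome 13. No protein-coding gene lay in either. Longer such stretches lay on the rest of both chromosomes, at 1008718 bp on chromosome 4 and 134489 bp on chromosome 13. Stretches of at least 50 kb made up 28.1% and 8.91% of these arrays, against 2.99% and 0.889% of the rest of their chromosomes.

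**Figure D2:**
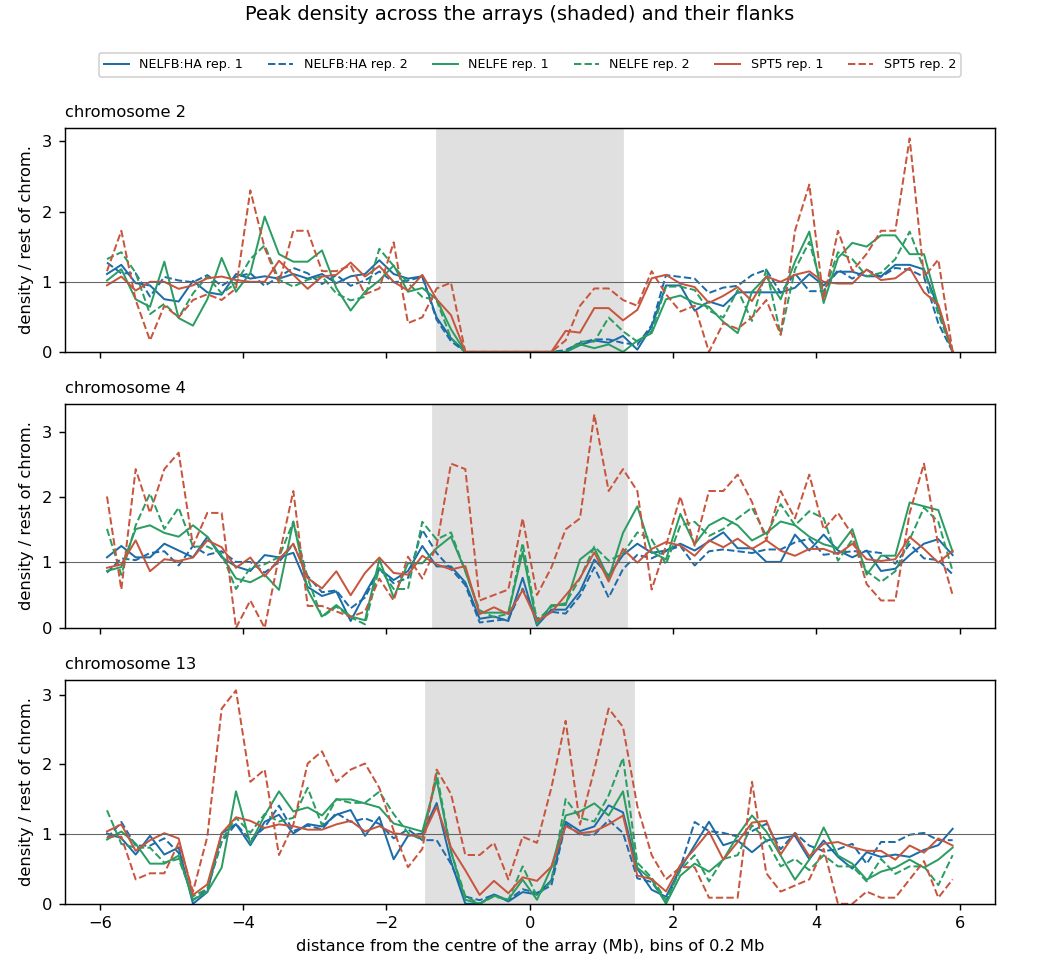
Peak density in bins of 0.2 Mb, relative to the rest of the chromosome (1 on the y axis), by distance from the centre of each array in Mb, 1 line per library, with the array shaded. Density falls to 0 in the middle of the chromosome 2 array in all 6 libraries and dips inside the other arrays, with higher values towards their edges.

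Peaks in the arrays were high by their pileup, the authors' measure of ChIP coverage in a peak. Pileup was ranked within each list, so that the median peak of a list lies at percentile 50. The median array peak lay at percentile 81.3 and 80.6 in NELFB:HA, 85.5 and 80.6 in NELFE, and 77.5 and 85.5 in SPT5, against 48.1 to 51.0 in the rest, and the ranges did not overlap. The mean difference was 32.05 ± 4.08 percentage points (SD, n = 6), positive in 6 of 6 libraries (exact sign-flip permutation test, p = 0.03125, adjusted 0.0469). By fold enrichment, the ratio of pileup to local background, the same difference was 6.11 ± 3.21 points, again in 6 of 6 libraries (exact p = 0.03125, adjusted 0.0469). That holds for the 3 arrays pooled, and the chromosome 4 array taken alone lay below the rest by fold in all libraries but SPT5 replicate 1. Among strong peaks alone the arrays lay below the rest, at a mean difference in pileup percentile of -0.79 points, in 6 of 6 libraries (exact p = 0.03125). The pileup difference over all peaks stayed positive in 6 of 6 libraries without the outer 200 kb of each array (38.7 points) and as a mean of the 3 arrays (27.1 points), but its adjusted p was then 0.0625 and 0.0521, past the threshold in neither.

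The chromosome 4 array stood highest, at 43.0 ± 1.29 points above the rest of its chromosome (SD, n = 6), against 20.1 ± 3.71 for chromosome 13 and 18.2 ± 10.1 for chromosome 2. Its median peak lay at pileup percentile 92.9 to 97.1, above each of the 56 windows of 2.6 Mb on the rest of chromosome 4 in all 6 libraries. By fold enrichment its median peak lay at percentile 30.9 to 59.2. This was below the rest in all libraries but SPT5 replicate 1, at 30.9 to 46.2 against 49.8 to 50.7. In SPT5 replicate 1 it was 59.2 against 50.6. The background implied by the ratio of pileup to fold enrichment was 1.39 to 1.68 times that of the rest in the chromosome 4 array. In the chromosome 13 array it was 1.02 to 1.06 times that of the rest, with median pileup percentiles of 65.2 to 71.4. In the chromosome 2 array it was 1.0 to 1.11 times, with percentiles of 58.5 to 81.3 from the few peaks there. Between 32.6% and 58.3% of the chromosome 4 peaks were among the highest 5% of their list by pileup, and 65.0% to 89.9% of those did not reach a q-value of 0.01. In the rest that share was 33.8% and 58.0% in NELFB:HA, 3.77% and 3.90% in NELFE, and 68.3% and 3.97% in SPT5. High pileup and a high implied background stood together in this array. Because that background was computed from the same pileup, these are not separate observations. The part of the background in the ranks was not tested beyond the fold enrichment given here.

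**Figure D3:**
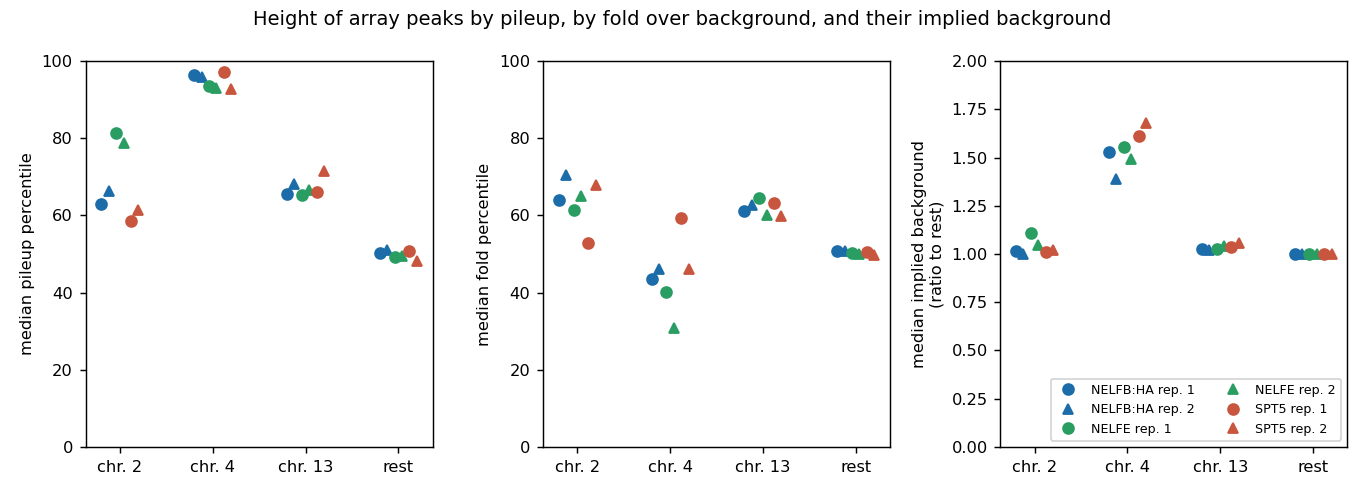
Median percentile of array peaks by pileup (left) and by fold enrichment (middle), and median implied background as a ratio to the rest (right), for the 3 arrays and the rest, 1 point per library (circles replicate 1, triangles replicate 2). The chromosome 4 array is highest by pileup, at 92.9 to 97.1, and between 30.9 and 59.2 by fold, with an implied background of 1.39 to 1.68.

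Most array peaks were weak calls, and a strong peak is here one at the authors' q-value of 0.01 or less. The arrays held 35 and 33 strong peaks in NELFB:HA, 50 and 56 in NELFE, and 32 and 50 in SPT5. These were 6.72%, 5.62%, 13.4%, 12.7%, 3.79% and 9.09% of the array peaks, against 2.81%, 1.8%, 5.28%, 5.04%, 1.45% and 5.67% of peaks in the rest. Per megabase the ratio of arrays to rest was 1.02, 1.17, 1.30, 1.40, 1.37 and 1.81, a mean log2 ratio of 0.41 ± 0.28 (SD, n = 6), positive in 6 of 6 libraries (exact sign-flip permutation test, p = 0.03125, adjusted 0.0469). With a stricter q-value threshold of 1e-05 the mean log2 ratio was -0.13, higher in 3 and lower in 3 libraries (exact p = 0.4375). The strong peaks lay on chromosomes 4 (16 to 29 per library) and 13 (13 to 28), with 0 to 3 on chromosome 2. With only the arrays of chromosomes 4 and 13 the mean log2 ratio was 0.96 (exact p = 0.03125, adjusted 0.0469). That subset was chosen after seeing the data and leaves out the array with the fewest strong peaks. The higher ratio follows from that choice.

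Width and replicate overlap pointed one way over all peaks and the other way over strong peaks. The median array peak was 804 to 981 bp wide against 706 to 960 bp in the rest, wider by 70.8 ± 29.8 bp (SD, n = 6) in 6 of 6 libraries (exact sign-flip permutation test, p = 0.03125, adjusted 0.0469). Among strong peaks the median was 1180 to 1486.5 bp in the arrays and 1688.5 to 2823.5 bp in the rest, with a mean of arrays minus rest of -891 bp and narrower array peaks in 6 of 6 libraries (exact p = 0.03125). The ranges of strong peak widths did not overlap. The other replicate had an overlapping peak for 43.7% to 74.2% of all array peaks, against 17.2% to 58.5% in the rest, a difference of 19.7 ± 5.27 percentage points in 6 of 6 libraries (exact p = 0.03125, adjusted 0.0469). Restricted to strong peaks in both lists, the share was 46.0% to 82.0% in the arrays against 78.2% to 95.4% in the rest, a mean of arrays minus rest of -21.8 points and a lower share in 6 of 6 libraries (exact p = 0.03125). When the outer 200 kb of each array were left out, array peaks were wider in 5 of 6 libraries, and strong peaks denser in 5 of 6, each with an exact p and an adjusted p of 0.0625. None of the 6 measures differed between antibodies at an adjusted p of 0.05, and 2 libraries against 2 cannot go below an exact permutation p of 0.333.

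Pooled over the 3 arrays, strong peaks at the zinc finger gene starts themselves were few. Of the 43 zinc finger genes with a promoter, a strong peak lay within 1 kb of the start in 6 (both NELFB:HA libraries), in 15 and 12 (NELFE), and in 2 and 3 (SPT5). The lowest share was 4.65% (95% exact binomial interval 0.568 to 15.8) and the highest 34.9% (21.0 to 50.9), intervals that cover counting error only. The shares for the 3253 protein-coding genes of the rest were 45.6%, 39.3%, 46.8%, 47.4%, 34.2% and 38.7%. The mean difference was -24.9 ± 7.89 percentage points (SD, n = 6), lower in 6 of 6 libraries (exact sign-flip permutation test, p = 0.03125, adjusted over 4 such comparisons to 0.0625), which did not pass after adjustment, in a test chosen after seeing the data. Among the other comparisons, peaks of any strength at these starts had a mean share of 72.5% against 74.0% in the rest. That difference was -1.51 ± 7.13 points, lower in 3 libraries and higher in 3 (exact sign-flip p = 0.65625, adjusted 0.65625). For strong peaks on chromosome 13 alone it was -15.6 ± 14.0 points, lower in 5 libraries (exact p = 0.09375, adjusted 0.125). NELFE replicate 1 was above the rest there, at 54.2% against 46.8%. No zinc finger gene had a strong peak in all 6 libraries, against 31.2% of the genes of the rest. In at least 1 library 18 of 43 had one, against 50.6% of the rest, and 25 had none. With a q-value threshold of 1e-05 the number was 6 (14.0%), against 44.3% of the genes of the rest.

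Those 18 genes lay on chromosome 13, where 16 of 24 zinc finger genes had a strong peak in at least 1 library, and on chromosome 4, where 2 of 13 did (Zfp982 and Zfp933). On chromosome 2, none of the 6 did, nor any of the 24 protein-coding genes with a promoter there. On chromosome 13 a peak of any strength lay at the start of 21 of 24 zinc finger genes (87.5%) in all 6 libraries, against 53.5% of the genes of the rest. Per library the share with such a peak was 91.7% to 100% on chromosome 13 and 62.3% to 81.8% in the rest. The difference was 21.8 ± 5.66 points in 6 of 6 libraries (exact sign-flip p = 0.03125, adjusted 0.0625, not past the threshold). This test was also chosen after seeing the data, and over the 3 arrays pooled the difference was -1.51 points. On chromosome 2, 21 of 24 protein-coding genes had no peak of any strength at the start in any library, Zfp966 and Zfp967 among them, against 4.95% of the genes of the rest.

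**Figure D4:**
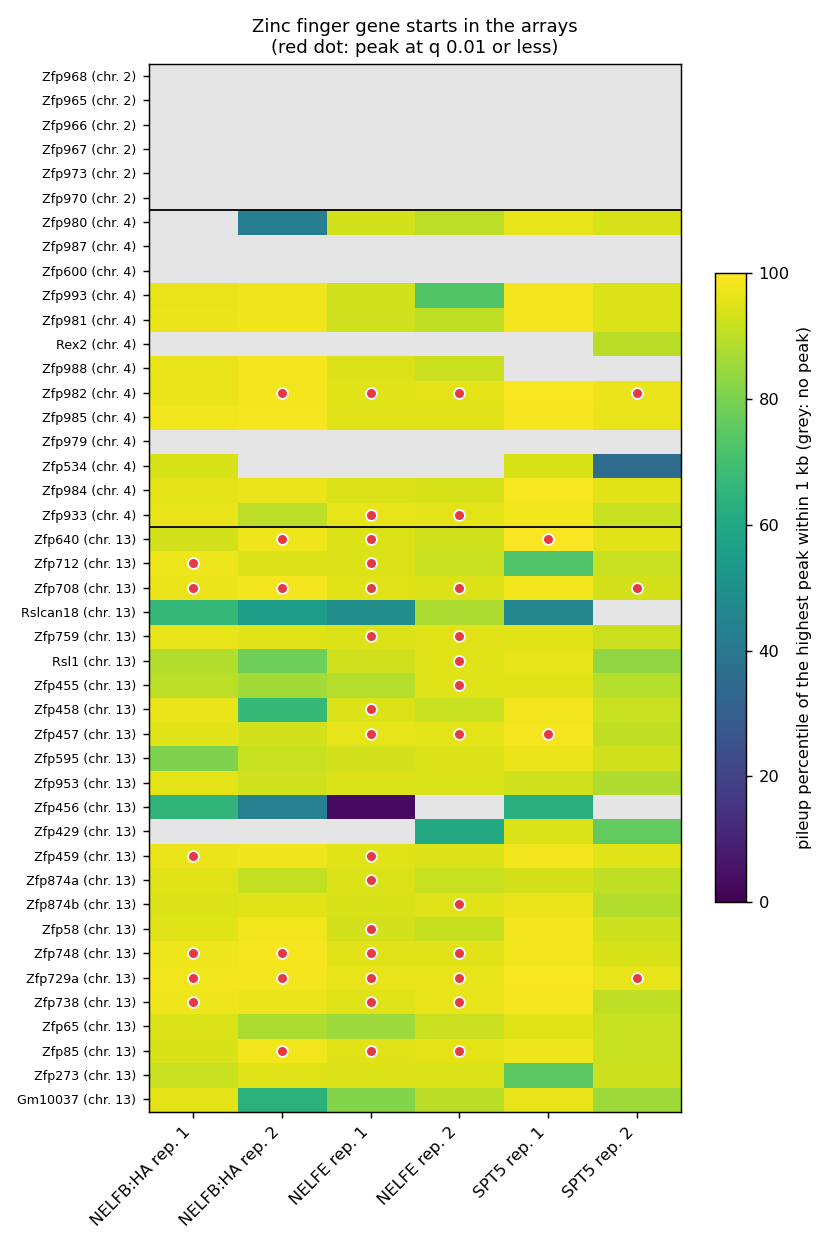
Pileup percentile (colour, 0 to 100) of the highest peak within 1 kb of each of the 43 zinc finger gene starts, by library, ordered along the arrays, with grey for no peak and a red dot for a strong peak. The 6 genes on chromosome 2 are grey in all libraries, and dots are most frequent in the NELFE columns, with 15 and 12, and on chromosome 13.

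Zfp708 and Zfp729a had strong peaks in 5 libraries, the largest number among the zinc finger genes. At Zfp729a the fold enrichment was 2.93 and 2.43 in NELFB:HA, 3.26 and 5.21 in NELFE, and 2.37 and 2.25 in SPT5. At Zfp708 it was 2.76 and 3.27, 2.63 and 3.19, and 2.51 and 2.62. SPT5 replicate 1 was the library without a strong peak at both genes, and at Zfp729a NELFE replicate 2 stood above the other 5. Zfp748 and, over its 3 annotated starts, Zfp982 had strong peaks in 4 libraries, with folds from 1.99 to 3.27 at Zfp748 and from 1.84 to 3.16 at Zfp982. These 4 genes were named after their values were seen. At Rex2 the only peak was a weak one in SPT5 replicate 2, of fold 2.13, and at Zfp600 there was none, the pair of near-identical promoters shown above.

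Other genes inside the arrays set a scale for these values. Mfsd14b, which encodes a membrane protein of the major facilitator family, was the only one of the 83 genes with a matched start in the arrays that had a strong peak there in all 6 libraries. Its folds were 4.2 and 4.31 in NELFB:HA, 7.91 and 7.87 in NELFE, and 3.35 and 3.52 in SPT5, each above those of Zfp729a and Zfp708 in the same library. Tnfrsf1b, a receptor for tumour necrosis factor at the edge of the chromosome 4 array, had strong peaks in 4 libraries and folds from 1.81 to 6.26. Miip and Fv1, the latter a retrovirus restriction gene, start close together and shared strong peaks in 3 libraries. Of the 40 genes not named as zinc finger genes, 7 (17.5%) had a strong peak in at least 1 library. The shares were 41.9% for the 43 zinc finger genes of the arrays and 50.6% for the genes of the rest.

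Pooled over the arrays, most strong regions lay away from annotated promoters, but 23 of 44 on chromosome 13 had a start within 1 kb. Of those 44 regions, 15 were strong in 1 library only, and no such count over all regions was made for the rest. Merging strong peaks over the 6 lists gave 98 regions in the arrays, 7 on chromosome 2, 47 on chromosome 4 and 44 on chromosome 13. Of these, 51 (52.0%) had a strong peak in both replicates of at least 1 antibody, against 78.7% of the 2384 merged regions of the rest. Among those 51, all 3 antibodies had both replicates in 12 (23.5%), against 57.5% in the rest. NELFE alone had both in 18 (35.3%), against 21.1% in the rest. A start from the promoter table lay within 1 kb of 17 of the 51 (33.3%), against 72.9% in the rest. By array it was 6 of 26 on chromosome 4 and 11 of 24 on chromosome 13. Only 84 of the 100 protein-coding genes had a promoter there, so a region at another gene's start was not counted. Protein-coding genes underlay 32 of the 51 (62.7%), against 86.2% in the rest. Pseudogenes underlay 10 of the 26 such regions on chromosome 4 and 1 of 24 on chromosome 13, against 2.08% in the rest. Annotated pseudogenes were also denser there, with 20.7 per Mb in the chromosome 4 array and 16.2 in that of chromosome 13 against 3.72 in the rest. Duplicated sequence can receive tags from its copies, and this was not tested.

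The leading regions, taken by mean pileup percentile over the 6 libraries, were mostly not at zinc finger genes. The highest, chr4:146066105-146070845, overlapped the transcribed pseudogene Gm13034 and lay at percentile 99.9 ± 0.0231 (SD, n = 6). Its folds were 5.81 and 5.19 in NELFB:HA, 5.50 and 7.22 in NELFE, and 2.65 and 2.33 in SPT5, so both SPT5 libraries were below the 4 NELF libraries. At chr4:147738489-147739737, over the pseudogene Gm13136, the folds were 7.56 and 9.09, 11.0 and 8.74, and 6.34 and 4.82. The third, chr4:145431628-145434173, inside the gene Gm42346, had a pileup percentile of 99.7 but folds of only 1.66 to 2.37, and its mean percentile by fold was 75.3. The longest merged region of that array, chr4:145531333-145538905, reached 1 end of Zfp990 and was 7573 bp long, but was strong in SPT5 replicate 2 alone.

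On chromosome 13, the leading region chr13:66902599-66906416 lay at 1 end of Uqcrb, which encodes a subunit of respiratory complex III, with ends of Gm10767 and Mterf3 within 1 kb. Its folds were 5.78 and 4.79 in NELFB:HA, 6.03 and 5.98 in NELFE, and 2.95 and 3.84 in SPT5. The region chr13:65239693-65243451 lay at the start of the long noncoding RNA Gm36445, with folds of 3.46 to 5.70. The region chr13:66928478-66934959, 6482 bp long and the longest of its array, lay at ends of Mterf3, a regulator of mitochondrial transcription, and Ptdss1, a phosphatidylserine synthase. Its folds were 5.31 and 4.76, 5.50 and 11.0, and 4.0 and 3.01. All 3 regions were strong in all 6 libraries, with lower folds in both SPT5 libraries than in each of the NELF libraries. That order was not particular to these regions, as it was also found at Mfsd14b, Trim28, Setdb1 and Cbx5, though not at Zfp42. On chromosome 2 the only replicated region, chr2:177072823-177075676, overlapped no annotated gene. It had folds of 2.13 and 2.75 in NELFB:HA, 2.97 and 3.24 in NELFE, and 2.19 and 2.03 in SPT5, and was strong in both NELFE libraries and NELFB:HA replicate 2.

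**Figure D5:**
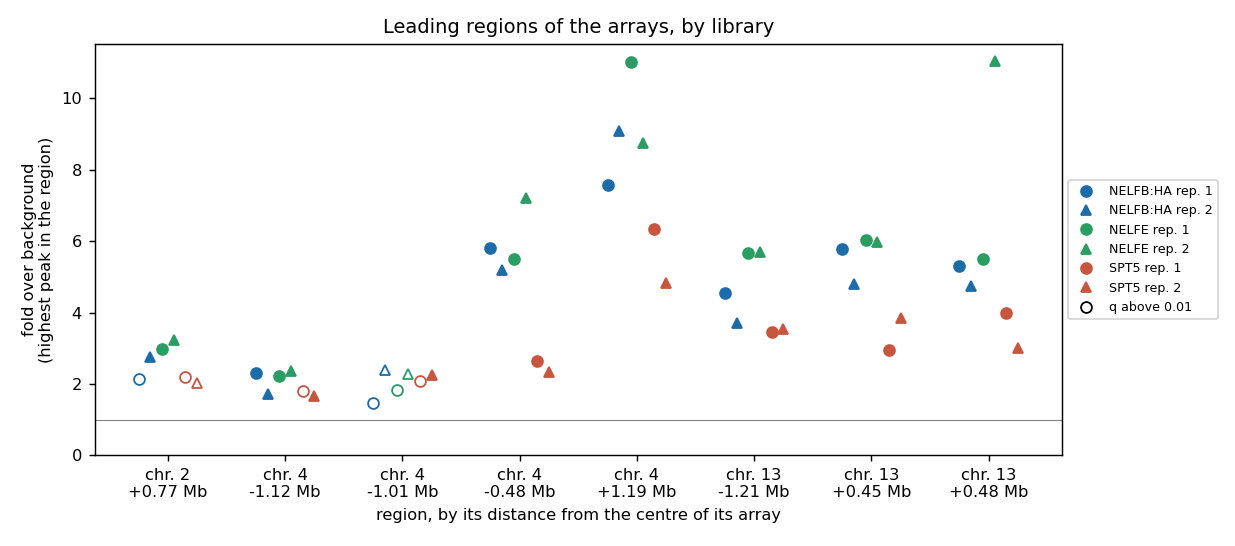
Fold enrichment of the highest peak (linear scale) in each leading region and the longest region of each array, by library, with regions placed by distance from the centre of their array and open symbols for peaks that are not strong. Folds run from 1.48 to 11.0, and SPT5 points lie below the NELF points of the same region in the 3 chromosome 13 regions, an order also found at genes elsewhere.

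The promoter sequences of the arrays also set the genes apart. From 250 bases before to 50 after the start, the median GC content was 48.3% for the 95 array promoters and 57.0% for 3983 promoters of the rest. The median number of CpG dinucleotides was 5 against 14. In the arrays, 52.6% of promoters shared a run of at least 50 bases with another gene's promoter, against 6.10% in the rest. The share was 89.7% on chromosome 2, 54.5% on chromosome 4 and 27.3% on chromosome 13. In that order, 0 of 24, 5 of 18 and 20 of 41 of the protein-coding genes had a strong peak in at least 1 library. Those were 0%, 27.8% and 48.8%, against 50.6% of the genes of the rest. Runs of 100 bases, the SPT5 tag length, were shared by 26 of 29 promoters on chromosome 2, 5 of 22 on chromosome 4 and 2 of 44 on chromosome 13. Of promoters of array genes with no strong peak at any start, 67.7% shared a run of 50 bases, against 20.7% of those with a strong peak in 1 to 5 libraries, and the medians of CpG dinucleotides were 4 and 9. In the rest the corresponding shares were 11.8% and 1.39%, and the medians 5 and 19. All 29 promoters on chromosome 2 belonged to genes without a strong peak, and 26 of them shared such a run. The contrast within the arrays is therefore partly one between arrays. Whether shared sequence or base composition bears on the peaks was not tested.

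Short motifs were counted on both strands, each on its own. CCAAT was found in 69.5% of array promoters, 36.8% of the rest and 38.2% of all 21262 promoters of protein-coding genes. GGGCGG was found in 21.1%, 47.8% and 46.2%, TATAAA in 7.37%, 12.5% and 12.6%, and TTCCGG in 32.6%, 19.7% and 18.7%. CCAAT stood in 93.1% of the 29 chromosome 2 promoters, 26 of which share a run of 50 bases with another gene's promoter, and GGGCGG in 63.6% of those on chromosome 4 and in none of those on chromosome 2. These matches describe the letters and show no bound factor.

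The genes that act with KRAB zinc finger proteins lie elsewhere in the genome and were bound strongly. Of 16 genes of silencing partners, 15 were matched, and 13 of them had a strong peak at the start in all 6 libraries, against 31.2% of the genes of the rest. Atrx and Atf7ip had it in 5. Trim28, the corepressor itself, had folds of 7.45 and 7.0 in NELFB:HA, 9.36 and 10.4 in NELFE, and 3.77 and 3.35 in SPT5. At Setdb1, the methyltransferase, they were 4.95 and 3.87, 7.72 and 5.57, and 2.44 and 2.66. At Cbx5, which encodes a heterochromatin protein, they were 8.60 and 7.20, 13.8 and 14.0, and 3.99 and 4.08. In each library the fold at Trim28 was above that at Zfp708 and Zfp729a.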

How the data were processed

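Binding of NELFB:HA, NELFE and SPT5 was measured in 6 control libraries, grouped by title. The authors ran MACS 2.1.1.20160309 on each library against an input, with p-value cutoffs of 0.01 and 0.1 in broad mode and 1 tag per position, per the file headers. The genome build mm10 and the tools Bowtie2 and deepTools are named in the submitters' processing notes. The deposited pileup is a coverage signal, the deposited fold enrichment a ratio to local background, and p-values and q-values were deposited as −log10, per the file headers. The headers say that q was not calculated, but no value is below 0, and the column was used as the authors' q-value.

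Peaks were assigned to arrays by midpoint. Array peaks were compared with the rest of chromosomes 2, 4 and 13 within each library, and the 6 contrasts were tested by exact sign-flip with Benjamini-Hochberg adjustment. Functions were tested on simulated data. Python 3.11.15, pandas 2.3.3 and numpy 2.4.6 were used. Gene positions and promoters came from RefSeq (GRCm38.p6). The regions named are, in each array, the 3 replicated merged strong regions with the highest mean pileup percentile and the longest merged region. Genes named for a strong peak in all 6 libraries would have been listed, but no zinc finger gene met that. The members and gene lists were chosen with earlier results of these data known. Same-numbered libraries of different antibodies did not deviate together (correlations of -0.041, 0.076 and -0.063 over 69 regions), so the numbers were not used as pairs.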

Additional observations from a re-analysis of the deposited data

Results flagged for a closer look

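In the chromosome 2 array, the share of peaks overlapped by the other replicate, relative to the rest of the chromosome, differed in direction between antibodies. Both libraries of each antibody went the same way. It was lower than the rest by 3.94 and 1.53 percentage points in NELFB:HA, and higher by 32.7 and 2.66 points in NELFE and by 18.5 and 16.6 points in SPT5. The mean of NELFB:HA minus that of NELFE was -20.4 points, and minus that of SPT5 it was -20.3 points. These shares rest on 13 to 125 peaks per library, and the difference was not tested.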

How the results depend on the processing

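Of 154 alternative values for 35 results, 91 kept their direction and side of the threshold, or moved little. A further 51 kept the direction but lost the call, 36 of them fits with a replicate or library left out, 1 gained it, 6 moved and 5 reversed. Part of the 91 was fixed in advance, such as the values with the replicate number as a block, which leaves the mean unchanged. Results that had missed the threshold also could not pass it with a replicate or library left out. The count of 91 is therefore no measure of robustness. Keeping only strong peaks (q-value up to 0.01) turned density to a log2 ratio of 0.41, width to -891 bp, pileup percentile to -0.79 points and replicate overlap to -21.8 points, and covered share, at -0.43, then passed. With a q-value of 1e-05 the log2 ratio of strong peaks was -0.13, and 6 in place of 18 zinc finger genes had a strong peak in at least 1 library. Leaving out the outer 200 kb of each array gave 80.4 bp, 38.7 points, 0.42 and 23.7 points for width, pileup percentile, strong peaks and replicate overlap, none past the threshold. The mean of the 3 arrays gave 72.7 bp, 27.1 points and 17.8 points for width, percentile and overlap, none past it; strong peaks could not be computed that way, nor could array differences with chromosome 2 at a q-value of 0.01, because 1 library has no strong peak on chromosome 2. The splits by tag length and antibody were chosen after seeing the data: the 4 NELF libraries gave 69 bp, 32.1 points, 0.28 and 18.5 points, and the 2 SPT5 libraries 74.25 bp, 32.0242 points, 0.65 and 22.2 points, where 4 and 2 libraries cannot go below p of 0.125 and 0.5. Other causes of these changes were not tested. Leaving out a replicate number or a library gave 64.2 to 80.7 bp for width, 31.0 to 33.1 points for percentile, 0.29 to 0.53 for strong peaks, 16.9 to 22.6 points for overlap, 2.51 to 2.66 for chromosome 4 minus 2 and 2.63 to 2.88 for chromosome 13 minus 2. Those fits have 3 or 5 libraries and cannot pass. With the replicate number as a block (replicate block), the density of NELFB:HA minus NELFE was -0.41 with an SD of 0.23, and no difference between antibodies passed with or without it. Lists differ in depth and length, so weak peaks limit every measure over all peaks.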
